A study of Homo sapiens with 12 samples.

Results

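The mitogen-activated protein (MAP) kinase phosphatases are enzymes that remove phosphate from the threonine and the tyrosine in the activation loop of ERK, p38 and JNK, and so switch these kinases off. The genes of 8 of them, DUSP1, DUSP4, DUSP5, DUSP6, DUSP7, DUSP8, DUSP10 and DUSP16, were followed by their gene symbols in bulk RNA sequencing of MIO-M1 cells. All 8 were among the 17598 genes of the siMAPK14 table and the 17146 genes of the siMAPK8_9 table, and all 8 passed the filter on low counts in both. MIO-M1 is an established, immortalized line of human Müller glia, the main supporting glial cell of the retina. The 12 libraries form 4 groups of 3, all wild type by label, all transfected with siRNA and all taken on day 3: siMAPK14 (labelled siMapk14) and its own control siRNA, and siMAPK8_9 (labelled siMapk8+9, siRNA against MAPK8 and MAPK9) and its own control siRNA. MAPK14 encodes p38 alpha, and MAPK8 and MAPK9 encode JNK1 and JNK2. No label ties the 3 libraries of a group to separate cultures; the p-values reported here rest on library-to-library spread alone, and that spread may be technical. The labels give the siMAPK14 experiment and the siMAPK8_9 experiment different batches, so a difference between the experiments and a difference between batches cannot be told apart.

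As background, the family splits by location and substrate. DUSP1 and DUSP4 are nuclear, inducible enzymes, DUSP1 acting mostly on p38 and JNK and DUSP4 on ERK and JNK. DUSP5 (nuclear) and DUSP6 and DUSP7 (cytoplasmic) are specific for ERK, and DUSP6 is a standard transcript readout of ERK feedback. DUSP8, DUSP10 and DUSP16 act on JNK and p38. Several of these genes are themselves transcribed in response to the kinases they restrain, and DUSP1 mRNA is short-lived through AU-rich elements in its 3′ end.

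The 250 bases before a start site were read for 4 members, because these carry the promoter elements that the members do and do not share. DUSP1 and DUSP10 are the most abundant members. DUSP6 was among the members whose knockdown effects, each against its own control, differed most. Among the 6 members with a window searched, DUSP8 is the one other with the element found in DUSP1. No window was searched for DUSP4 and DUSP5. The sequences are RefSeq's, of build GRCh38.p14, 5′ to 3′ on the minus strand in each case, and lie at chr5:172771196-172771445 (DUSP1), chr11:1572272-1572521 (DUSP8), chr1:221742090-221742339 (DUSP10) and chr12:89352502-89352751 (DUSP6). For DUSP1, DUSP10 and DUSP6 the start is the annotated 5′ end of the gene. The DUSP8 bases lie inside the annotated gene, whose 5′ end is at chr11:1572848, so the DUSP8 start is an internal one. Capitals mark TGACG (the core of the cAMP response element, whose full form is TGACGTCA), TATAAA and CCAAT on either strand.
DUSP1: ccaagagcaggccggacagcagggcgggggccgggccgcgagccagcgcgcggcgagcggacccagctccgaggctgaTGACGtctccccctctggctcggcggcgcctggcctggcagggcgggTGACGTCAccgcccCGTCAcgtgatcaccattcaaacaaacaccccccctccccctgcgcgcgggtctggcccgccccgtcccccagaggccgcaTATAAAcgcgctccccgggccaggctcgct
DUSP8: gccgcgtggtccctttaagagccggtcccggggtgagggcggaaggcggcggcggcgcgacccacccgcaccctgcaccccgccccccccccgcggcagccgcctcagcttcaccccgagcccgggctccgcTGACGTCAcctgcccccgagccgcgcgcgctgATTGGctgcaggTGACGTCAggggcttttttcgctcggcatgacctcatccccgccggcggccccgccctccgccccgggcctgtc
DUSP10: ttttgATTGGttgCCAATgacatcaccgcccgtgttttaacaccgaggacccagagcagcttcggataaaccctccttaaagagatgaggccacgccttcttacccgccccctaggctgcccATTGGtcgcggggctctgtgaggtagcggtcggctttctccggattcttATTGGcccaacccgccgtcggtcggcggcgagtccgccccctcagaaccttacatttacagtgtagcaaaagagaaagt
DUSP6: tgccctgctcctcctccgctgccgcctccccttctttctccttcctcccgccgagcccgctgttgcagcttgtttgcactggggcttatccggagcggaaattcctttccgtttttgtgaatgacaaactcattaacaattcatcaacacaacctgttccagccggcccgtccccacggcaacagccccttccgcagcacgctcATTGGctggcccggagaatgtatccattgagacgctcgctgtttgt

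RefSeq windows, which also hold the 50 bases after the start, were used for 6 of the 8 members (DUSP1, DUSP6, DUSP7, DUSP8, DUSP10 and DUSP16). TGACGTCA was present in DUSP1, from -125 to -118 relative to the start. In DUSP8 it lay from -118 to -111 and from -74 to -67 relative to the internal start. Of 35116 windows, 1.85% hold it. The shorter TGACG, which TGACGTCA contains on each strand, was in the same 2 members and in 24.6% of windows. TATAAA was in DUSP1 from -30 to -25 and in 11.5% of windows. CCAAT was in DUSP6, DUSP7, DUSP8 and DUSP10 (34.6% of windows), 4 times in DUSP10. GGGCGG was in 5 members, all but DUSP6, and in 45.0% of windows. TGANTCA (the AP-1 element, 7.71% of windows), the CArG box of serum response factor (1.29%) and CCGGAAG (an ETS element, 10.3%) had no match in the 6 windows. In the 3′ untranslated regions of GENCODE release 29, the pentamer ATTTA occurred 4 times in the 672 bases of DUSP1, or 5.95 per kilobase, a density that 6.35% of 17919 genes reach. DUSP10 held 3 copies in 988 bases, DUSP4 6 in 3962, DUSP16 5 in 2623, DUSP8 4 in 2474 and DUSP6 1 in 2022, while DUSP5 and DUSP7 held 0; the median over all genes was 1.55 per kilobase. A match is a description of the letters and was not tied to any change measured here.

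The libraries of the 2 experiments had total counts of 14516406 to 19463837 in siMAPK14, against 31040067 to 31362585 in its control, and 9246294 to 20136463 in siMAPK8_9, against 31296944 to 31510571 in its control. Mitochondrially encoded genes took 32.1% to 45.0% of counts in siMAPK14 and 8.93% to 36.9% in siMAPK8_9, against 1.56% to 2.03% over the 6 control libraries; the part of these shares in the results was not tested. The siMAPK8_9 library of replicate 2 stood apart: its mitochondrial share was 8.93%, and 16 epithelial marker genes summed to 1365 CPM (counts scaled to library size), of which KRT14 made up 353, against sums of 8.42 and 9.37 CPM in the other siMAPK8_9 libraries and 6.44 to 7.27 CPM in their control. Values of siMAPK8_9 without replicate 2 are given beside the results that they change, other than correlations between genes, which were computed only with it. Of 15 Müller glia markers, 12 or 13 were above 3 counts in every library of each group, but KCNJ10 had at most 3 counts in any library and RLBP1 was at 0 in both control groups; AQP4 was not analysed here. Transcript length moved with the knockdowns: with genes split by effective length into 5 equal bins, the median log2 fold change was 0.72 in the shortest bin and -0.57 in the longest for siMAPK14, and 0.95 and -0.78 for siMAPK8_9. DUSP1, DUSP5 and DUSP10 lie in bin 2 from the short end, DUSP6 and DUSP7 in bin 3, DUSP8 in bin 4 and DUSP4 and DUSP16 in bin 5. Among other genes named below, MAPK3, DUSP2, DUSP14 and ZFP36 lie in the shortest bin and SPRED1 and MAPK8 in the longest. MAPK14, MAPK9, DUSP3, SPRY4 and ETV5 lie in bin 4. The values of these other genes were not corrected for length. The targeted genes were checked first: MAPK14 had 33.5 ± 3.5 CPM in siMAPK14, against 76.7 ± 2.0 in its control (SD, n = 3 each). MAPK8 had 10.1 ± 1.2 CPM and MAPK9 23.1 ± 4.8 CPM in siMAPK8_9, against 27.9 ± 0.12 and 64.4 ± 0.94 CPM in its control (SD, n = 3 each). MAPK14 also fell in siMAPK8_9, to 56.2 ± 13.2 CPM, against 85.0 ± 1.9 CPM in its control (SD, n = 3 each, edgeR quasi-likelihood, adjusted p = 0.0258). The log2 fold change of MAPK14 there was -0.60, where the median of its length bin, bin 4, was -0.44.

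**Figure D1:**
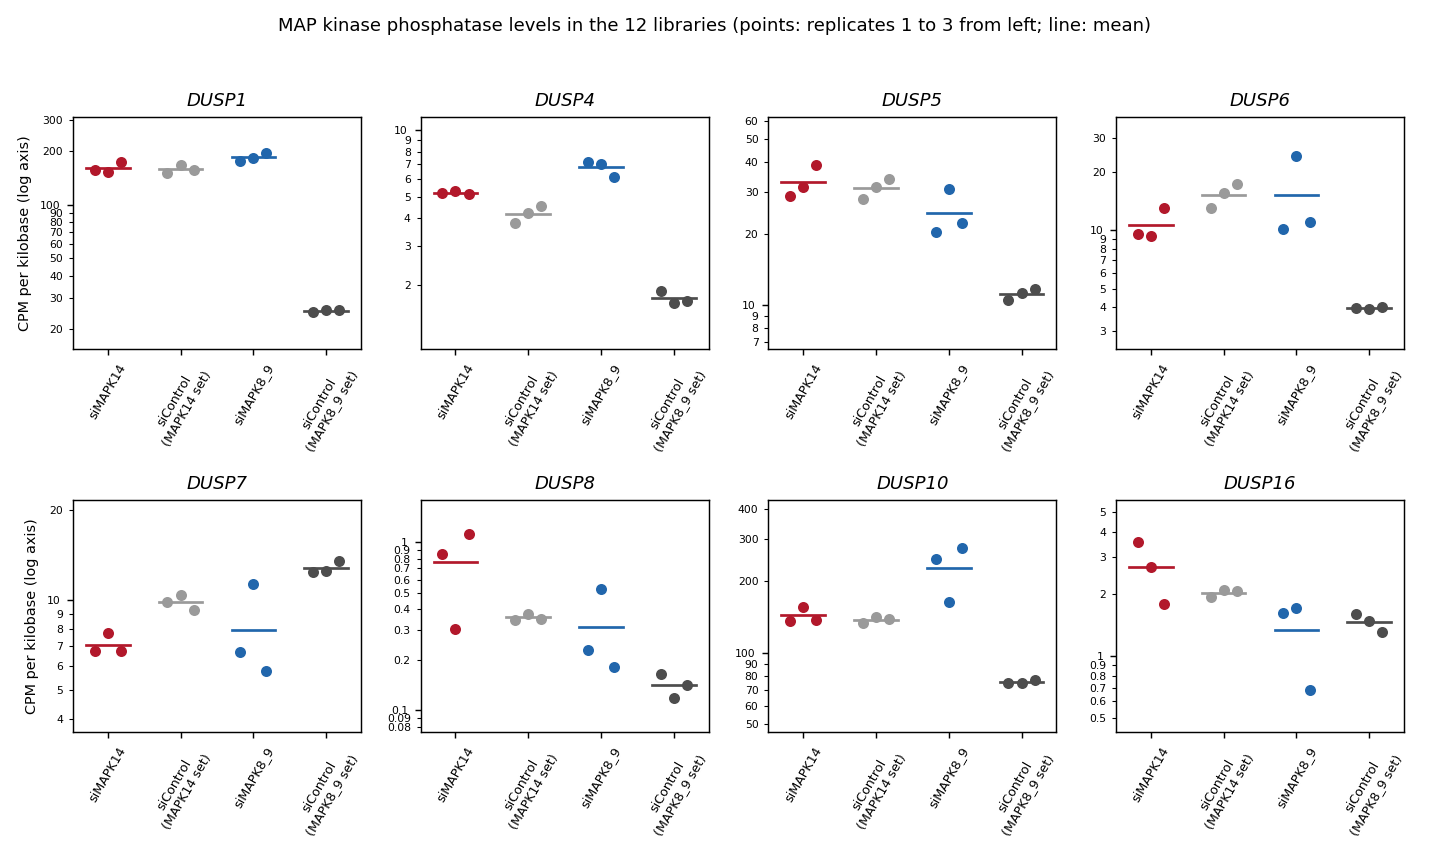
Level of each MAP kinase phosphatase gene in CPM per kilobase of effective length (log axis, all 12 libraries scaled together), with 3 replicate points and the mean as a line for each of the 4 groups. DUSP1, DUSP4, DUSP5, DUSP6, DUSP8 and DUSP10 lie lowest in all 3 control libraries of the siMAPK8_9 experiment, and DUSP7 lies highest there.

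The members spanned a wide range of levels. Levels set across genes and across experiments are CPM per kilobase of effective transcript length, with the 12 libraries scaled together. In siMAPK14 DUSP1 had 161 ± 11.2 and DUSP10 143 ± 11.2 CPM per kilobase (SD, n = 3), with overlapping libraries, followed by DUSP5 at 33.2, DUSP6 at 10.6, DUSP7 at 7.08, DUSP4 at 5.22, DUSP16 at 2.69 and DUSP8 at 0.759. Its control had the same order, with DUSP1 at 159 ± 8.6, DUSP10 at 137 ± 3.9, DUSP5 at 31.2, DUSP6 at 15.3, DUSP7 at 9.81, DUSP4 at 4.21, DUSP16 at 2.02 and DUSP8 at 0.357 CPM per kilobase, and no neighbours in that order overlapped. In siMAPK8_9 DUSP10 came first at 228 ± 57.8, then DUSP1 at 185 ± 9.4, DUSP5 at 24.5 ± 5.6, DUSP6 at 15.1 ± 7.8, DUSP7 at 7.93 ± 3.0, DUSP4 at 6.78 ± 0.57, DUSP16 at 1.33 ± 0.56 and DUSP8 at 0.314 ± 0.19 CPM per kilobase. There the libraries of DUSP10 and DUSP1 overlapped, as did those of DUSP5 and DUSP6, of DUSP6 and DUSP7, and of DUSP7 and DUSP4. The first 3 of these overlaps came from replicate 2. Replicates 1 and 3 were apart, with DUSP10 at 247 and 274, DUSP1 at 177 and 196, DUSP5 at 20.5 and 22.2, DUSP6 at 10.2 and 11.0, and DUSP7 at 6.70 and 5.78 CPM per kilobase. Without replicate 2, DUSP4 (mean 6.66) stood above DUSP7 (mean 6.24), and these were the only neighbours that overlapped. The siMAPK8_9 control had a different order: DUSP10 at 75.3 ± 1.6, DUSP1 at 25.3 ± 0.45, DUSP7 at 12.8 ± 0.61, DUSP5 at 11.2 ± 0.62, DUSP6 at 3.96 ± 0.05, DUSP4 at 1.74 ± 0.12, DUSP16 at 1.46 ± 0.14 and DUSP8 at 0.142 ± 0.02 CPM per kilobase. DUSP1 thus stood at 185 in siMAPK8_9, 161 in siMAPK14 and 159 in the siMAPK14 control, and at 25.3 CPM per kilobase in the siMAPK8_9 control alone. In bulk RNA, fewer cells that express a gene and less RNA per cell cannot be told apart.

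Knockdown of MAPK14 left the most abundant phosphatase genes within their spread and moved 4 others, DUSP8 by 2.21-fold and the other three by at most 0.49 on the log2 scale. DUSP4 and DUSP8 rose and DUSP6 and DUSP7 fell, while DUSP1, DUSP5, DUSP10 and DUSP16 did not pass the test. These 4 of 8 calls stand against 59.9% of 13183 genes called in this comparison (29.4% higher and 30.5% lower), so the share of members called was not above the background. The median log2 fold change was 0.11 over the 8 members and -0.02 over all genes tested. The levels that follow are CPM scaled within the experiment, in the order of replicates 1, 2 and 3, and adjusted p-values are from edgeR's quasi-likelihood test with Benjamini-Hochberg adjustment over all genes.

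Among the nuclear inducible enzymes, DUSP1 (MKP-1) had 269, 260.2 and 297 CPM in siMAPK14, against 252, 281 and 263 CPM in its control. The groups overlapped, and the log2 fold change was 0.06 ± 0.07 (SE, adjusted p = 0.527). DUSP4 had 27.3, 27.6 and 26.8 CPM in siMAPK14, against 19.6, 21.7 and 23.2 CPM in its control. All 3 siMAPK14 libraries were above all 3 controls, and DUSP4 rose by 0.34 ± 0.10 on the log2 scale (adjusted p = 0.0156), or 1.27-fold. DUSP5, the nuclear ERK phosphatase, had 62.4, 68.6 and 84.5 CPM in siMAPK14, against 59.5, 66.9 and 72.4 CPM in its control, with a log2 fold change of 0.12 ± 0.12 (adjusted p = 0.409). The groups of DUSP5 overlapped.

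The cytoplasmic ERK phosphatases of the 8, DUSP6 and DUSP7, fell. DUSP6 had 31.4, 30.9 and 43.0 CPM in siMAPK14, against 42.2, 50.3 and 56.0 CPM in its control. Replicate 3 of siMAPK14 lay just above the lowest control, so the groups overlapped, and DUSP6 fell by 0.49 ± 0.15 on the log2 scale (adjusted p = 0.0208). DUSP7 had 20.5, 23.7 and 20.5 CPM in siMAPK14, against 29.3, 30.9 and 27.5 CPM in its control. The groups did not overlap, and DUSP7 fell by 0.45 ± 0.10 (adjusted p = 0.00455), to 73.4% of its control. DUSP4 and DUSP7 were the 2 members of 8 whose libraries did not overlap, which held for 68.6% of all genes tested (32.9% higher and 35.7% lower).

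Of the JNK and p38 phosphatases, DUSP10 (MKP-5) had 297, 342 and 301 CPM in siMAPK14, against 285, 301.5 and 295 CPM in its control. The groups overlapped, and the log2 fold change was 0.09 ± 0.07 (adjusted p = 0.276). DUSP8 had 3.68, 1.32 and 4.82 CPM in siMAPK14, against 1.47, 1.59 and 1.47 CPM in its control. Replicate 2 lay below all 3 controls and the other two siMAPK14 libraries well above them, and DUSP8 rose by 1.15 ± 0.43 on the log2 scale (adjusted p = 0.0439), a call lost in 9 of 16 alternatives. DUSP16 had 19.7, 14.9 and 9.88 CPM in siMAPK14, against 10.4, 11.3 and 11.1 CPM in its control, with 1 library below all controls and a log2 fold change of 0.43 ± 0.22 (adjusted p = 0.129).

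The siMAPK14 calls changed with single libraries and with the correction for length. Leaving out single libraries gave 1 to 4 called members, DUSP7 being called each time (adjusted p of at most 0.0342), where 48.7% to 63.6% of all genes were called. The single call was reached without replicate 2 of the control, and 2 calls without replicate 1 of siMAPK14 or without replicate 1 or 3 of the control. With the length trend removed, DUSP1 was lower (log2 fold change -0.34, adjusted p = 0.00715) and DUSP16 higher (0.83, adjusted p = 0.0182), the fall of DUSP6 no longer passed (-0.38, adjusted p = 0.0636), and DUSP5 and DUSP10 turned to -0.10 and -0.13. Scaling by total counts moved the median of all genes to -0.79 and the calls to 729 higher and 8355 lower, against 3876 and 4023; relative to that median the members stood at 0.08 (DUSP1), 0.36 (DUSP4), 0.15 (DUSP5), -0.45 (DUSP6), -0.43 (DUSP7), 1.21 (DUSP8), 0.10 (DUSP10) and 0.43 (DUSP16).

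Knockdown of MAPK8 and MAPK9 gave a different picture against its own control. DUSP1, DUSP4, DUSP5, DUSP6 and DUSP10 rose, DUSP1 by 7.42-fold, and the 3 others did not pass the test. These 5 of 8 calls, all higher, stand against 52.9% of 13124 genes called (26.8% higher and 26.1% lower). The median log2 fold change was 1.44 over the 8 members and -0.05 over all genes tested. The libraries of 7 members did not overlap (6 higher and DUSP7 lower), as was so for 67.9% of all genes tested (31.6% higher and 36.3% lower).

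**Figure D2:**
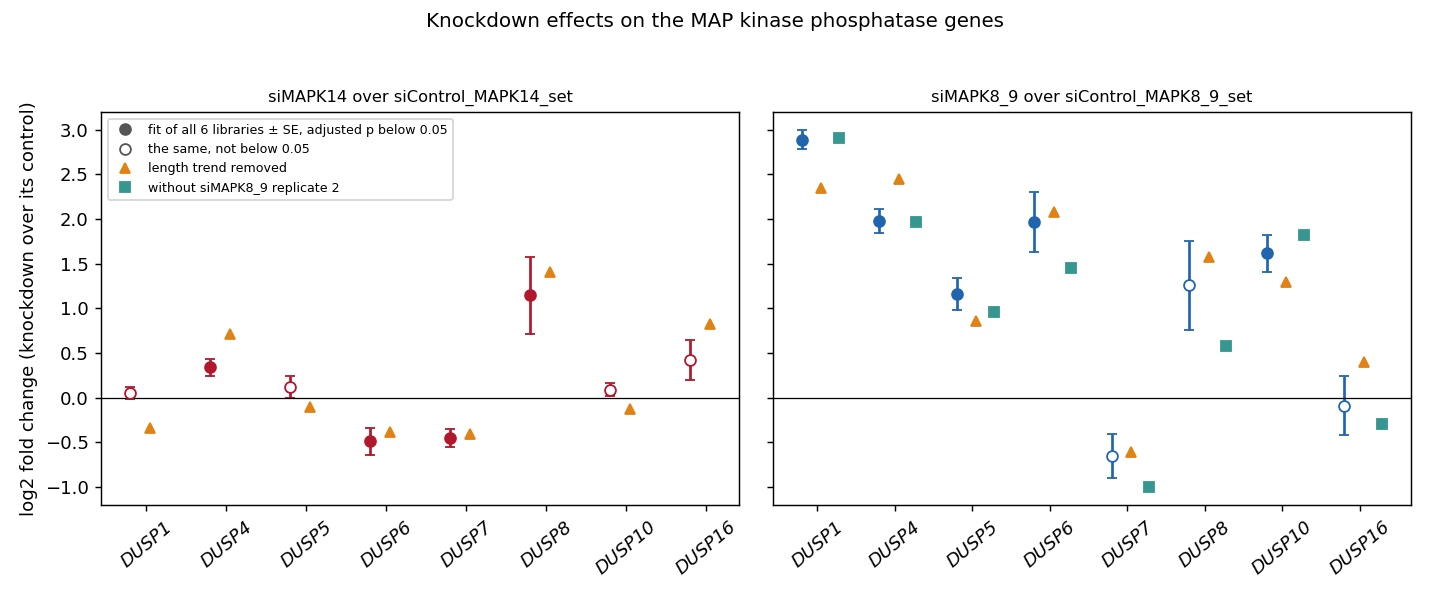
Log2 fold change of each member in siMAPK14 and in siMAPK8_9, each over its own control, as circles with the SE (filled where adjusted p was below 0.05), with the values after removal of the length trend (triangles) and without siMAPK8_9 replicate 2 (squares). The siMAPK14 circles lie between -0.49 and 1.15, and 5 members rose by 1.16 to 2.89 in siMAPK8_9.

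DUSP1 had 313, 321 and 345 CPM in siMAPK8_9, against 43.0, 44.4 and 44.5 CPM in its control. All knockdown libraries lay far above all controls, including replicate 2, and the log2 fold change was 2.89 ± 0.11 (SE, edgeR quasi-likelihood, adjusted p = 9.69e-05). DUSP4 had 38.8, 37.9 and 33.1 CPM in siMAPK8_9, against 10.0, 8.78 and 9.05 CPM in its control, a rise of 1.98 ± 0.14 on the log2 scale (adjusted p = 0.000297). The groups of DUSP4 were as clearly apart. DUSP10 had 557, 368 and 620 CPM in siMAPK8_9, against 166, 165 and 172 CPM in its control. It was lowest in replicate 2, though still above every control, and rose by 1.62 ± 0.20 (adjusted p = 0.00145), or 3.07-fold.

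The ERK phosphatases differed from each other. DUSP5 had 45.8, 69.0 and 49.9 CPM in siMAPK8_9, against 23.1, 24.9 and 25.9 CPM in its control, a rise of 1.16 ± 0.18 on the log2 scale (adjusted p = 0.00247). DUSP6 had 34.8, 82.4 and 37.7 CPM in siMAPK8_9, against 13.4, 13.1 and 13.5 CPM in its control, a rise of 1.97 ± 0.34 (adjusted p = 0.0038). Both were highest in replicate 2, the library with the epithelial transcripts, and every knockdown library was above every control. DUSP7 had 21.1, 35.5 and 18.2 CPM in siMAPK8_9, against 38.4, 38.8 and 42.0 CPM in its control. All 3 libraries were lower than all 3 controls, with replicate 2 nearest to them, and the log2 fold change of -0.65 ± 0.25 did not pass the test (adjusted p = 0.064). Without replicate 2 DUSP7 passed, at -1.0 (adjusted p = 0.000101), as it did with DESeq2 (-0.62, adjusted p = 0.0382), with the replicate block (-0.72, adjusted p = 0.0406) and in the joint fit of 12 libraries (-0.66, adjusted p = 0.0113).

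The remaining JNK and p38 phosphatases had low levels. DUSP8 had 1.02, 2.35 and 0.81 CPM in siMAPK8_9, against 0.72, 0.52 and 0.62 CPM in its control, with a log2 fold change of 1.26 ± 0.50 (adjusted p = 0.0705). Replicates 1 and 3 held 7 and 5 counts of DUSP8. It was highest in replicate 2, and without that library the value was 0.57 (adjusted p = 0.311). DUSP8 passed with limma-voom (1.33, adjusted p = 0.0431), with the length trend removed (1.57, adjusted p = 0.0418) and without replicate 3 (1.52, adjusted p = 0.0327). DUSP16 had 9.22, 9.70 and 3.90 CPM in siMAPK8_9, against 8.98, 8.31 and 7.40 CPM in its control, with a log2 fold change of -0.09 ± 0.33 (adjusted p = 0.835). Replicate 3 lay below all controls and the other two above them.

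Without siMAPK8_9 replicate 2 the 5 members that rose still passed, at 2.91 (DUSP1), 1.97 (DUSP4), 0.97 (DUSP5), 1.45 (DUSP6) and 1.82 (DUSP10), and 71.1% of 13444 genes were called (33.6% higher and 37.5% lower). With scaling by total counts DUSP5 (0.54, adjusted p = 0.243) and DUSP6 (1.42, adjusted p = 0.0736) no longer passed, the median of all genes was -0.71 and the calls over all genes were 1122 higher and 4914 lower, against 3514 and 3424.

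The effects of the 2 knockdowns were then tested against each other in 1 fit of all 12 libraries. The siMAPK14 effect minus the siMAPK8_9 effect was -2.85 ± 0.12 for DUSP1 (SE, edgeR quasi-likelihood, adjusted p = 9.47e-08), -2.48 ± 0.39 for DUSP6 (adjusted p = 0.00139), -1.65 ± 0.16 for DUSP4 (adjusted p = 5.45e-05), -1.53 ± 0.22 for DUSP10 (adjusted p = 0.000761) and -1.06 ± 0.22 for DUSP5 (adjusted p = 0.00764). These 5 of 8 members, all with the lower effect in siMAPK14, stand against 15.9% of 13648 genes called in either direction and 9.02% called lower. DUSP7 (0.19 ± 0.28), DUSP8 (-0.14 ± 0.68) and DUSP16 (0.50 ± 0.41) did not pass; without siMAPK8_9 replicate 2 DUSP7 did, at 0.61 (adjusted p = 0.00702). Scaling by total counts ended the call of DUSP5 (-1.19, adjusted p = 0.124).

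The levels of both control sets bear on that difference. Set directly against each other, the siMAPK14 control was higher than the siMAPK8_9 control in 7 members and lower in DUSP7, all 8 past the threshold, where 73.6% of 13409 genes were called (37.3% higher and 36.3% lower). The libraries of all 8 members were apart, as were those of 75.9% of all genes tested (38.2% higher and 37.7% lower). The log2 difference was 2.66 ± 0.04 for DUSP1, 1.96 ± 0.12 for DUSP6, 1.49 ± 0.08 for DUSP5, 1.34 ± 0.19 for DUSP8, 1.28 ± 0.07 for DUSP4, 0.88 ± 0.03 for DUSP10, 0.48 ± 0.08 for DUSP16 and -0.37 ± 0.05 for DUSP7 (SE, edgeR quasi-likelihood, adjusted p of at most 2.03e-05 each). The median was 1.31 over the 8 members and 0.01 over all genes tested. With the spread estimated over all 12 libraries, DUSP7, DUSP8 and DUSP16 no longer passed and 5 members did, where 22.3% of 13648 genes were called.

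The knockdown groups were set against each other after the data had been seen. None of the 8 members was called between siMAPK14 and siMAPK8_9 by edgeR, DESeq2 or limma-voom, where edgeR called 0.458% of 12450 genes. At an unadjusted p below 0.05 edgeR had 2 members, DUSP10 at -0.65 ± 0.20 and DUSP16 at 1.00 ± 0.39, and 1698 of all 12450 genes tested. The libraries of 4 members did not overlap (DUSP1, DUSP4 and DUSP10 lower and DUSP16 higher in siMAPK14), as was so for 20.3% of all genes tested. These counts depended on replicate 2 of siMAPK8_9: without it 17.8% of 12613 genes and 3 members were called, DUSP5 higher (0.67, adjusted p = 0.00534), DUSP10 lower (-0.83, adjusted p = 4.11e-06) and DUSP16 higher (1.24, adjusted p = 0.0273) in siMAPK14.

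**Figure D3:**
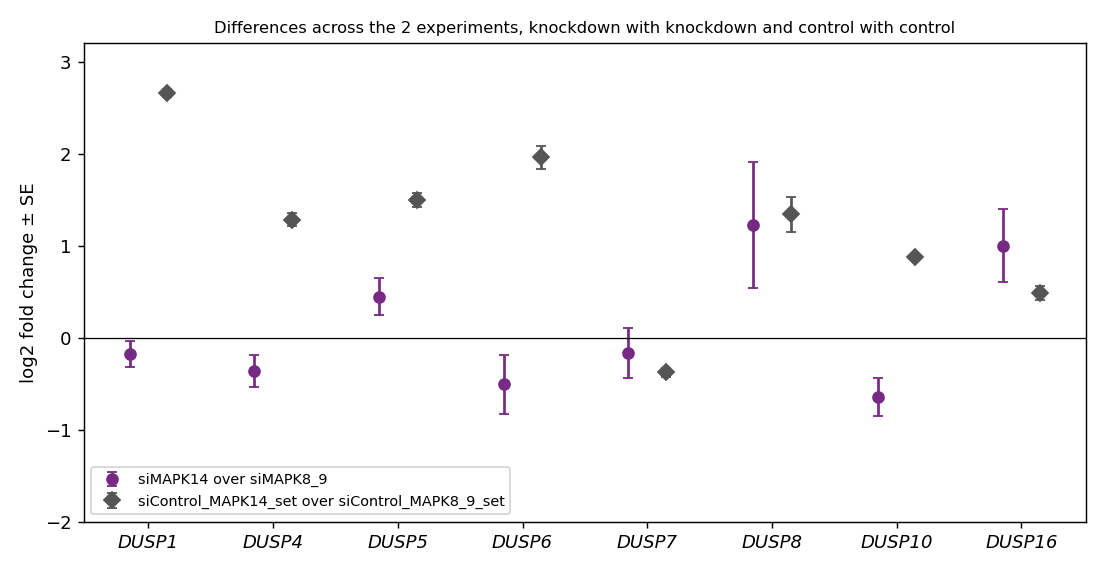
Log2 fold change ± SE of each member between the knockdown groups (circles, siMAPK14 over siMAPK8_9) and between the control groups (diamonds, siMAPK14 control over siMAPK8_9 control). For DUSP1 the 2 values are -0.18 and 2.66, and for DUSP6 -0.51 and 1.96.

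Within the joint fit the difference of effects equals the difference between the knockdown groups minus that between the controls, so these comparisons share samples and are given side by side. For DUSP1 the knockdown groups differed by -0.20 and the controls by 2.65. For DUSP6 the values were -0.53 and 1.95, for DUSP4 -0.38 and 1.27, for DUSP5 0.42 and 1.48, and for DUSP10 -0.67 and 0.87. In each of these 5 the difference between the controls was larger in size than that between the knockdown groups. For DUSP7 the values were -0.20 and -0.39, for DUSP8 1.18 and 1.33, and for DUSP16 0.97 and 0.47. Whether the 2 control groups differ by siRNA, culture or batch was not tested.

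Across the 12 libraries, after the 6 of each experiment were centred on their mean, DUSP1 and DUSP4 had a Pearson r of 0.98, DUSP1 and DUSP10 of 0.96, DUSP5 and DUSP6 of 0.94 and DUSP1 and DUSP5 of 0.92. DUSP7 ran opposite to DUSP10 (r = -0.82), DUSP4 (-0.73) and DUSP1 (-0.71), and DUSP16 had an r between -0.33 and 0.29 with the 7 others. These are descriptions of 12 points that share libraries, depth and the knockdown contrasts. They include replicate 2 of siMAPK8_9, in which DUSP5 and DUSP6 were highest of that group, and were not computed without it. Among 8867 genes of at least 10 CPM, those with the most similar patterns were RRAGA and SMIM3 for DUSP1 (r of 0.998 and 0.997), PNRC1 and FAM162A for DUSP4 (0.993 each), CLDND1 and CEBPB for DUSP5 (0.989 and 0.974) and INSIG2 and ERRFI1 for DUSP6 (0.995 and 0.992). For DUSP7 they were TCF3 and PTBP1 (0.993 and 0.988), for DUSP8 TMEM167B and MAT2B (0.970 and 0.949), for DUSP10 PYCR1 and CSRP1 (0.993 and 0.991) and for DUSP16 AFTPH and SEC62 (0.922 and 0.907).

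The rest of the pathway was described from gene lists. Of 17 feedback and target genes of ERK signalling, 1 rose and 12 fell in siMAPK14, with a median log2 fold change of -0.55, and of the 16 tested in siMAPK8_9 4 rose and 2 fell, with a median of 0.60. Over all genes tested, 29.4% were called higher and 30.5% lower in siMAPK14, with a median of -0.02, and 26.8% and 26.1% in siMAPK8_9, with a median of -0.05. Without siMAPK8_9 replicate 2 the list had 4 higher and 5 lower calls and a median of 0.10, against 33.6% of all genes higher, 37.5% lower and a median of -0.10. SPRY4, a feedback inhibitor of receptor signalling, had 11.0 ± 2.3 CPM in siMAPK14, against 29.4 ± 1.9 CPM in its control (SD, n = 3 each; edgeR, adjusted p = 6.37e-05), and 13.7 ± 7.7 CPM in siMAPK8_9, against 6.01 ± 0.56 CPM in its control (SD, n = 3 each; edgeR, adjusted p = 0.039). Its siMAPK8_9 libraries had 12.7, 21.9 and 6.50 CPM, and the highest control had 6.42 CPM. Without replicate 2 the log2 fold change of SPRY4 was 0.70 ± 0.27 (adjusted p = 0.0497), against 1.22 ± 0.40 with it. ETV5, an ETS transcription factor and ERK target, had 74.5 ± 6.9 CPM in siMAPK14, against 115.7 ± 1.3 CPM in its control, and 79.4 ± 2.0 CPM in siMAPK8_9, against 48.6 ± 1.8 CPM in its control (SD, n = 3 each). It fell by 0.64 ± 0.08 on the log2 scale in siMAPK14 and rose by 0.71 ± 0.09 in siMAPK8_9. The medians of the length bin of ETV5 and SPRY4, bin 4, were -0.33 in siMAPK14 and -0.44 in siMAPK8_9. SPRED1, an inhibitor of the RAS to RAF step, and SPRY2 fell in siMAPK14 (-1.18 ± 0.08 and -0.41 ± 0.14) and did not pass in siMAPK8_9 (-0.57 ± 0.31 and 0.67 ± 0.40). SPRED1 had 39.2, 87.8 and 40.3 CPM in siMAPK8_9, and without replicate 2 it was lower (-1.06 ± 0.09, adjusted p = 2.47e-05), while SPRY2 had 0.00059 ± 0.17 (adjusted p = 0.998). ETV4 and the early-response factor EGR1 did not pass in either knockdown. Both were highest in replicate 2 of siMAPK8_9, where the libraries had 0.146, 11.2 and 1.79 CPM of ETV4 and 5.71, 14.6 and 1.46 CPM of EGR1; without it the log2 fold changes were 0.20 ± 0.74 and -0.51 ± 0.46, against 2.53 ± 1.05 and 0.54 ± 0.65 with it. Between the controls, 14 of the 17 genes were higher and 3 lower in the siMAPK14 control, where 37.3% of all genes were higher and 36.3% lower.

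Of the AP-1 and ATF subunits, the transcription factors that JNK and p38 act on, 7 of 12 rose and 2 fell in siMAPK14, and 7 of 12 rose and 1 fell in siMAPK8_9 (8 and 2 without replicate 2). All genes tested had 29.4% higher and 30.5% lower calls in siMAPK14, and 26.8% and 26.1% in siMAPK8_9 (33.6% and 37.5% without replicate 2). ATF3 had 200.2 ± 33.3 CPM in siMAPK14, against 49.9 ± 7.0 CPM in its control, and 133 ± 39.5 CPM in siMAPK8_9, against 11.3 ± 0.97 CPM in its control (SD, n = 3 each). FOS rose by 1.61 ± 0.14 in siMAPK14 and by 2.78 ± 0.27 in siMAPK8_9 on the log2 scale, while JUN did not pass in either (-0.14 ± 0.12 and 0.44 ± 0.25). ATF3 was lowest in replicate 2 of siMAPK8_9, at 91.3 CPM against 169.9 and 138 CPM in the others, and its log2 fold change was 3.55 ± 0.25 with that library and 3.78 ± 0.12 without it. JUN had 278, 526 and 291 CPM in siMAPK8_9, and without replicate 2 its value was 0.09 ± 0.04 (adjusted p = 0.0927). Of 11 genes of AU-rich mRNA decay and deadenylation, siMAPK14 gave 5 higher and 5 lower calls and siMAPK8_9 gave 3 higher and 5 lower (5 and 5 without replicate 2). ZFP36 (tristetraprolin), which binds AU-rich elements and marks mRNAs for decay, rose by 0.45 ± 0.15 in siMAPK14 and by 2.39 ± 0.12 in siMAPK8_9. The medians of its length bin, the shortest, were 0.72 and 0.95.

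**Figure D4:**
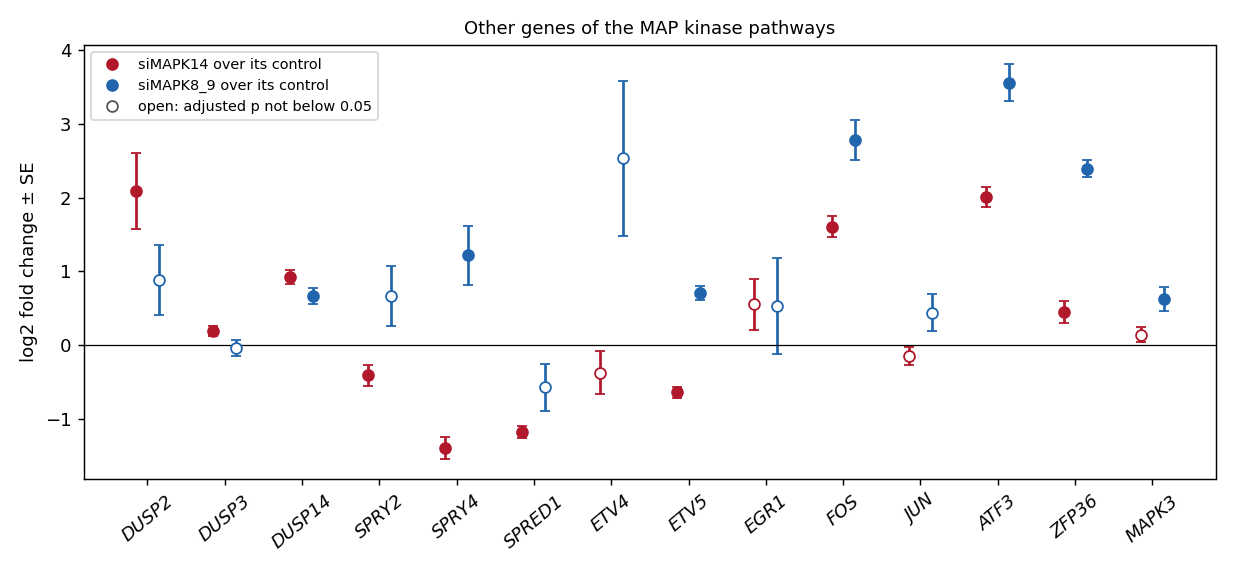
Log2 fold change ± SE of 14 other MAP kinase pathway genes in siMAPK14 and in siMAPK8_9, each over its own control, open where adjusted p was not below 0.05. SPRY4 and ETV5 lie below 0 in siMAPK14 and above 0 in siMAPK8_9, and ATF3 and FOS lie above 0 in both.

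Phosphatases outside the 8 were measured in the same tables. DUSP2, a nuclear MAP kinase phosphatase, had 1.52 ± 0.36 CPM in siMAPK14, against 0.351 ± 0.16 CPM in its control (SD, n = 3 each). It rose by 2.09 ± 0.51 on the log2 scale (edgeR, adjusted p = 0.00674). This rests on 15, 19 and 24 counts in siMAPK14 and 14, 21 and 8 counts in the deeper control libraries. In siMAPK8_9 the log2 fold change of DUSP2, 0.89 ± 0.47, did not pass. DUSP9, a cytoplasmic ERK phosphatase, was below the filter in each experiment, with 0 counts in 2 siMAPK8_9 libraries and 36 in replicate 2. Of 13 atypical dual-specificity phosphatases, which lack the kinase-binding domain, 9 rose and 1 fell in siMAPK14, and of the 11 tested in siMAPK8_9 6 rose (7 of 12 rose and 1 fell without replicate 2). DUSP14 rose by 0.93 ± 0.09 in siMAPK14 and by 0.66 ± 0.11 in siMAPK8_9, where the medians of its length bin, the shortest, were 0.72 and 0.95. DUSP3 rose by 0.20 ± 0.07 in siMAPK14 and had -0.04 ± 0.11 in siMAPK8_9. Of 8 tested protein phosphatases of other families that act on MAP kinases, 5 rose and 1 fell in siMAPK14 and 4 rose in siMAPK8_9 (6 rose and 1 fell without replicate 2). Beside both lists, 59.9% of all genes were called in siMAPK14 (29.4% higher) and 52.9% in siMAPK8_9 (26.8% higher). Without replicate 2 the siMAPK8_9 share was 71.1% (33.6% higher).

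Of the kinases themselves, 13 genes of the ERK cascade gave 3 higher and 5 lower calls in siMAPK14 and 4 higher and 3 lower in siMAPK8_9. MAPK3 (ERK1) had a log2 fold change of 0.15 ± 0.10 in siMAPK14, which did not pass, and rose by 0.63 ± 0.16 in siMAPK8_9. The medians of its length bin, the shortest, were 0.72 in siMAPK14 and 0.95 in siMAPK8_9. Of 15 genes of the p38 cascade, 6 fell and 4 rose in siMAPK14, against 5 and 2 in siMAPK8_9. Of 13 tested genes of the JNK cascade, 8 fell and 1 rose in siMAPK14, against 5 and 1 in siMAPK8_9. The p38 list includes MAPK14, and the JNK list includes MAPK8 and MAPK9. These are the siRNA targets, and their falls in their own knockdowns are among the lower calls. Without siMAPK8_9 replicate 2 the siMAPK8_9 counts were 4 higher and 6 lower in the ERK cascade, 2 higher and 7 lower in the p38 cascade and 1 higher and 10 lower in the JNK cascade. These counts lie against the same shares of all genes, 59.9% called in siMAPK14 and 52.9% in siMAPK8_9 (71.1% without replicate 2).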

How the data were processed

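Polyadenylated RNA of 12 MIO-M1 libraries was sequenced, per the labels' protocols. The authors deposited 1 table per experiment with expected counts per gene (estimated, not normalized) and FPKM (per kilobase of effective length and library size). Per the submitters' processing notes, the build was GRCh38.p14 and the tools included RSEM 1.3.1, Bowtie2 2.3.4.3 and DESeq2 1.4.5, with no roles given; the strand and the annotation are not given in the sources used here, so reads of a gene and an antisense partner cannot be told apart. A further 24 columns of per-library values were not used.

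Expected counts were rounded and tested in R 4.3.3 with edgeR 4.0.16: filterByExpr (minimum count 10, minimum total 15), TMM scaling, robust quasi-likelihood fit, Benjamini-Hochberg adjustment over all genes tested, threshold 0.05. Each knockdown was fitted with its own control, the controls and the knockdown groups in pairs, and the difference of effects over all 12 libraries. FPKM served only to derive effective length (count over FPKM, for counts of at least 10 and FPKM of at least 0.2). Alternatives were limma-voom (limma 3.58.1) and DESeq2 1.42.0 as tools; RLE factors or total counts as scaling; 1 CPM on average or nothing as the filter; a block for the replicate number; removal of a lowess trend on length (span 0.3); no mitochondrial genes; all 12 libraries in 1 fit; and each library left out in turn. The members, gene lists and tests were chosen with earlier results of these data known. Named genes are all members, a fixed set of pathway genes (1 of them is not reported here), and per member the 2 genes with the highest r. The pipeline was tested on simulated data. Replicate libraries were compared by chi-square per degree of freedom (2.11 to 344), and no 2 were identical. The depth, at which 1 count is 0.0244 to 0.162 CPM, limits DUSP2, DUSP8 and DUSP9. Python 3.11.15 and matplotlib 3.10.9 drew the figures.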

Additional observations from a re-analysis of the deposited data

Results flagged for a closer look

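The difference between the 2 knockdown effects passed the test (edgeR quasi-likelihood, adjusted over all genes) for 5 members, which is what marked them for a closer look. The siMAPK14 effect minus the siMAPK8_9 effect, on the log2 scale, was -2.85 for DUSP1, -1.65 for DUSP4, -1.06 for DUSP5, -2.48 for DUSP6 and -1.53 for DUSP10. In each of the 5, and in DUSP8, whose difference did not pass, the siMAPK8_9 control held the lowest level of the 4 groups. With 3 libraries in a group, single libraries were not tested as outliers.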

How the results depend on the processing

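Over 16 alternatives of the siMAPK14 effect, 17 of the siMAPK8_9 effect, 22 of their difference and 16 of the control difference, every call of DUSP1, DUSP4 and DUSP10 in siMAPK8_9, in the difference and between the controls kept its direction and its side of the threshold. Of the 8 members, 4 were called in siMAPK14 (59.9% of all genes). The joint fit gave 1 (50% of all genes), and leaving out single libraries gave 1 to 4 (48.7% to 63.6% of all genes). In siMAPK8_9 total counts gave 3 in place of 5 (46% of all genes in place of 52.9%). Calls were gained there by DUSP7 in 5 alternatives and by DUSP8 in 3, as given with those genes and, for DUSP7 (-0.94), without replicate 2 and the length trend together. Between the controls the joint fit gave 5 in place of 8 (22.3% of all genes in place of 73.6%). Between the knockdown groups leaving out single libraries gave 0 to 3 (0% to 17.8% of all genes). In siMAPK14 total counts turned DUSP1 (-0.71), DUSP4 (-0.43), DUSP5 (-0.64), DUSP10 (-0.69) and DUSP16 (-0.37), where the median of all genes was -0.79. The length trend turned DUSP1 (-0.34), DUSP5 (-0.10) and DUSP10 (-0.13), no filter turned DUSP1 (-0.0020), and leaving out single libraries gave DUSP1 -0.012 to 0.095 and DUSP5 -0.027 to 0.20, negative without siMAPK14 replicate 3. DUSP16 in siMAPK8_9 turned to 0.40 with the length trend removed and to 0.26 without replicate 2 and the length trend together, an alternative added after seeing the data, and ran from -0.29 to 0.20 without single libraries (0.20 without replicate 3). The difference of effects of DUSP8 turned to 0.50 under that added alternative and ran from -0.53 to 0.63 without single libraries, with 0.21 without siMAPK14 replicate 2 and 0.63 without siMAPK8_9 replicate 2. Between the knockdown groups DUSP6 ran from -0.73 to 0.035 and DUSP7 from -0.36 to 0.21 without single libraries, the upper end in each case without siMAPK8_9 replicate 2. The causes of these changes were not tested. The deviations of same-numbered libraries had an r of -0.026 to 0.054 over genes, and of at most 0.030 within an experiment. Such values cannot exclude a pairing by number. With the replicate block 3 members were called in siMAPK14 (56.7% of all genes) and 6 in siMAPK8_9 (46.2%). The block gave 5 in the difference (8.64%) and 8 between the controls (73.8%). Over all genes, the difference of effects had 2169 calls, against 1028 with total counts (184 higher and 844 lower, in place of 938 and 1231), 1179 with the replicate block, 5205 without siMAPK8_9 replicate 2 and 4861 under the added alternative; the control difference had 9872, against 3045 in the joint fit; the knockdown groups had 57, against 307 with DESeq2, 131 with the length trend removed and 0 to 2240 without single libraries.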
